A study of Mus musculus with 15 samples.

Results

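The retinal pigment epithelium (RPE) is the pigmented cell layer behind the photoreceptors, and its baseline transcriptome is described here from 7 wild-type libraries of the 15 in the series. They are the libraries titled Mertk WT 1 to 4 and Bai1 Tg neg 1 to 3, all 7 labelled as carrying wild-type Mertk. The second set is also labelled negative for the Bai1 transgene, for which none of the labels names a promoter. All came from female mice at postnatal day 14, with RNA taken 2 hours after light onset, on a strain background given as a mixture of C57BL/6J and B6;129-Mertktm1Grl/J, the line of the Mertk knockout allele. A library titled Bai1 Tg neg 4 was not among the 7. The labels do not say whether each library is its own animal, so spreads and p-values describe these libraries and may be partly technical.

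The RPE recycles retinal for the photoreceptors (the visual cycle), engulfs and digests their shed outer segment tips, makes melanin, carries glucose, lactate, ions and water between the choroid and the retina, and secretes carriers and growth factors on both sides. Its transcripts were ranked by length-scaled abundance, which is the fragment count of a gene divided by its exon length and scaled so that each library sums to 1000000. Abundances below are in these units, and shares are percentages of the library's sum. Over the 7 libraries, 11999 of 46078 genes reached an abundance of 1 in every library, and 10870 of these are protein coding. Total counts ran from 9591129 to 18507103 per library.

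A small number of genes made up much of the RNA. The most abundant gene alone, Ttr, which encodes the thyroid hormone and retinol carrier transthyretin, held 6.07% ± 0.339 (SD, n = 7) of the abundance. The 10 most abundant genes held 19.95% ± 0.745, the 50 most abundant 33.4% ± 0.535, the 100 most abundant 39.6% ± 0.538 and the 500 most abundant 58.1% ± 0.406. Between 242 and 273 genes were enough for 50% of a library, and between 4358 and 4553 for 90%. As shares of counts, which weigh long transcripts more, the same 10 and 100 genes held 10.7% ± 0.477 and 25.9% ± 0.508.

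**Figure D1:**
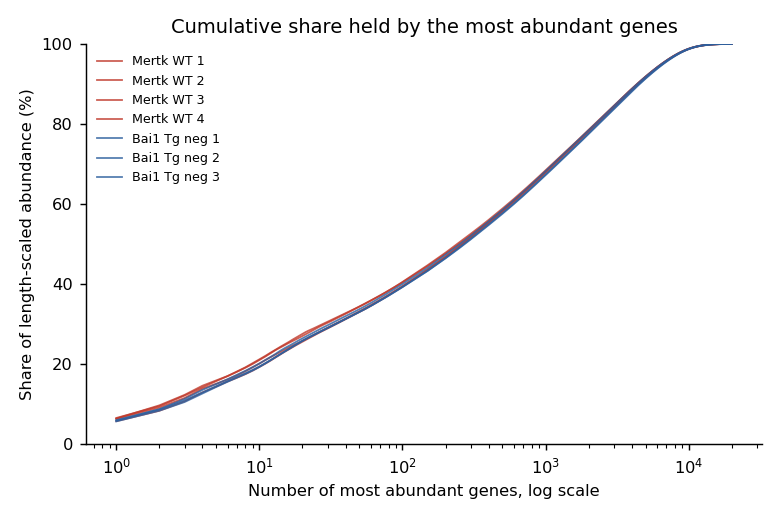
Share of length-scaled abundance (%, vertical axis) held by the most abundant genes (number of genes, horizontal log axis), with a line for each of the 7 libraries, red for Mertk WT and blue for Bai1 Tg neg. The 7 lines nearly coincide, and the 100 most abundant genes of the mean ranking hold between 39.2% and 40.3% in each.

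The order at the top was nearly fixed between libraries. Ttr was first and Ptgds second in all 7, Rgr and Cst3 held ranks 3 and 4 in either order, and mt-Co1 had rank 5 in all 7. In all, 7 genes were in the top 10 of every library and 13 in the top 10 of any. For the top 100 these numbers were 81 and 121, and the lowest single-library rank of a gene in the mean top 100 was 187. Of the top 100 by mean, 99 are protein coding, 7 lie on the mitochondrial genome and 1 is X-linked, beside 399 X-linked genes among those detected. Transcripts of the top 100 were short, with a median exon length of 2108.5 bases beside 3740 for all detected genes. Length scaling itself moves short genes up, and 65 of the 100 were also in the top 100 by counts.

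Of 14 marker genes of the RPE, 9 were in the top 100 and 12 in the top 1000. The other 2 were Mitf, the master transcription factor of pigment cells, at 69.8 ± 10.4 (rank 2185), and Best1, a chloride channel of the basal membrane, at 0.778 ± 0.366 (rank 14630), below the detection limit used here. Otx2, a homeodomain factor of RPE identity, had the highest abundance of 24 listed transcription factors at 924 ± 57.3 (rank 108).

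**Figure D2:**
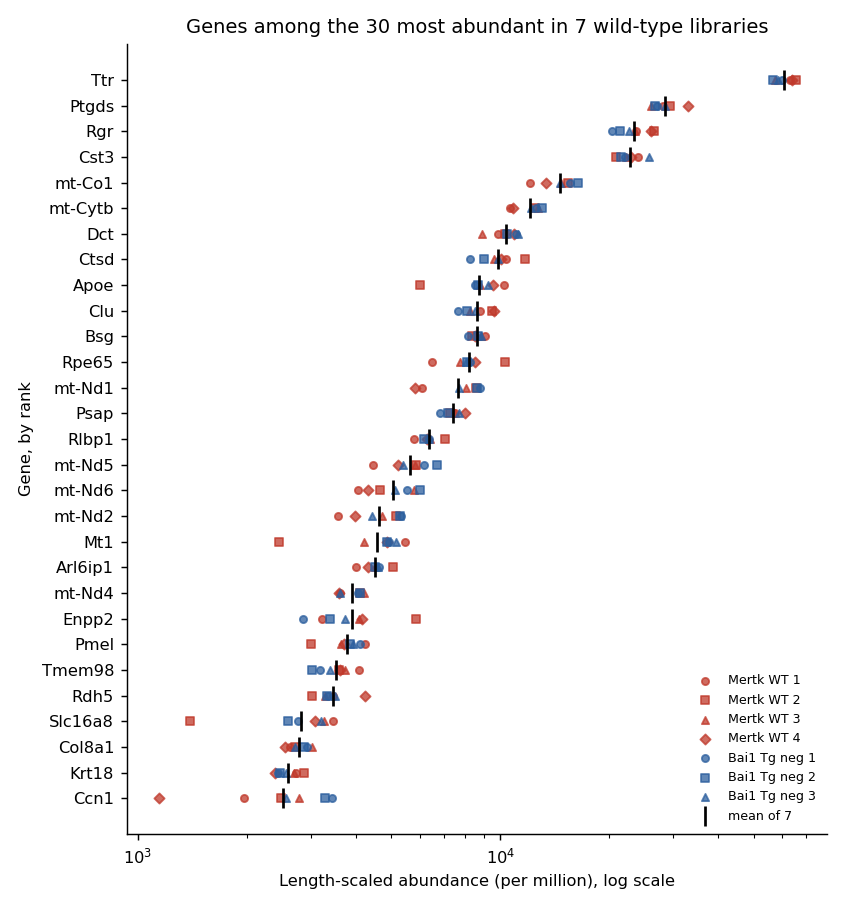
Length-scaled abundance (per 1000000, horizontal log axis) of genes among the 30 most abundant, in rank order; each symbol is a library and the black tick is the mean of 7. Ttr lies apart at 56765 to 65335, and Mertk WT 2 stands away from the other 6 libraries for Apoe, Mt1, Enpp2 and Slc16a8.

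Secreted carriers and signals formed the largest of the listed groups, with 14.7% ± 0.698 of the abundance and 9 of 26 members in the top 100. Ttr ranged from 56765 to 65335 with a median of 59834. It was higher in 3 of the 4 Mertk WT libraries than in any Bai1 Tg neg library, Mertk WT 3 being the exception at 57306.5. Ptgds, the lipocalin-type prostaglandin D synthase, ranged from 26043 to 33034 (median 28099). Cst3, the secreted cathepsin inhibitor cystatin C, ranged from 20881 to 25739 (median 22285). The 2 sets overlapped for both.

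Apoe and Clu encode lipid-carrying apolipoproteins. Apoe was at 10262, 6015, 8809 and 9537 in Mertk WT 1 to 4 and at 8521, 8669 and 9254 in Bai1 Tg neg 1 to 3. Mertk WT 2 was thus the low library, and the other 6 lay within 8521 to 10262. Clu ranged from 7657 to 9584 with no such gap. Psap, the precursor of the lysosomal saposins, was steadier at 7418 ± 371 (SD, n = 7). Enpp2, which encodes autotaxin, the enzyme that makes lysophosphatidic acid, was at 5863 in Mertk WT 2 and between 2859 and 4164 in the other 6. Lower in the list came Sparc, a matrix-binding glycoprotein (1220 ± 73.8, rank 76), Trf, the iron carrier transferrin (962 ± 198, rank 100), Vegfa, the growth factor that maintains the choroidal vessels (783 ± 62.2, rank 132), and Bmp4 (542 ± 62.7, rank 205). Serpinf1, which encodes the secreted factor PEDF, was at 4.90 ± 1.26, and the retinol carrier gene Rbp4 at 12.0 ± 3.24.

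Visual cycle and retinoid genes held 5.00% ± 0.351, with 8 of 14 members in the top 100 and 12 detected. Rgr, an opsin of the RPE that isomerises retinal in light, ranged from 20328 to 26549 (median 23476). The Bai1 Tg neg libraries lay at 20328 to 22646 and the Mertk WT libraries at 23476 to 26549, without overlap. Rpe65, the isomerase that makes 11-cis retinol, was at 6481 in Mertk WT 1, 10332 in Mertk WT 2 and 7764 to 8542 in the other 5. Rlbp1, which encodes the retinaldehyde carrier CRALBP, ranged from 5792 to 7059.5. The retinol dehydrogenase Rdh5 was at 3449 ± 377, and Rdh10, another retinol dehydrogenase, was at 1930 ± 74.4. The retinol uptake receptor Stra6 (1513 ± 130) and Lrat, which esterifies retinol for storage (1474 ± 168), were at similar levels. Rrh, the opsin peropsin, came at 240.5 ± 21.4 (rank 553).

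Melanin genes held 1.91% ± 0.106, and Dct alone accounted for 1.04% of the abundance. Dct, the dopachrome tautomerase, ranged from 8918 to 11193 (median 10412), above the other enzymes of the pathway in all 7 libraries. Pmel, whose protein forms the fibrils of the melanosome, was at 3782 ± 406, Tyrp1 at 1402 ± 82.1 and Tyr, which encodes tyrosinase, the first enzyme of the pathway, at 716 ± 43.5. Pmel was lowest in Mertk WT 2 at 2997, the other 6 libraries being at 3632 to 4240.2. Of the 17 members, 16 were detected and Slc7a11 was the exception at 0.42 ± 0.152.

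Promoter windows of these abundant RPE genes were read from RefSeq (GRCm38.p6) as the 250 bases before the RefSeq start, 5′ to 3′ on the gene's strand. Of 19113 genes with such a window, 1957 (10.2%) held the hexamer CATGTG on either strand, an E-box of the kind that MITF binds. The hexamer was in 7 of the 12 melanin genes with a window (58.3%), beside 7.05% of 8963 detected genes and 9 of the 73 genes of the top 100 with a window (12.3%). The 7 include Slc7a11, which was not among the detected genes. The windows of the melanin enzymes Dct, Tyrp1 and Tyr are shown with each CATGTG, in either direction, in capitals. Pmel had no entry.
Dct, chr14:118052247-118052496, minus strand: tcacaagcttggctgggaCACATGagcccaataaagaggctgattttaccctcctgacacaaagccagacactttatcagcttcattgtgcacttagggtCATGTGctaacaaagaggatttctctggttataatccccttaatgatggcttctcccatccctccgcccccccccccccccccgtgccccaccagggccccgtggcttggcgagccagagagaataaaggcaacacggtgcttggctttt
Tyrp1, chr4:80833963-80834212, plus strand: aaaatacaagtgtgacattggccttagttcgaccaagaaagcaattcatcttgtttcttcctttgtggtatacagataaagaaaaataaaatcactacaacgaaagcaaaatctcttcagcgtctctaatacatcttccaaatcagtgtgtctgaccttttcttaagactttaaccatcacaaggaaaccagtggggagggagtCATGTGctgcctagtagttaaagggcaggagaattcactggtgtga
Tyr, chr7:87493513-87493762, minus strand: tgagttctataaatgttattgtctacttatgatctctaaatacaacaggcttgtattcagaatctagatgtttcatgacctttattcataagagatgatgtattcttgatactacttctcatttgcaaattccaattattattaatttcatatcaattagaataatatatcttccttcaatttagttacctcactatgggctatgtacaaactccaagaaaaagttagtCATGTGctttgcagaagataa
The hexamer TAATCC, the site type of OTX and CRX homeodomain factors, was in 6.24% of all windows and in 5.20% of detected genes. It was in 9 of 73 in the top 100 (12.3%) and in 2 of 12 visual cycle genes, the same count as in the 12 melanin genes. The windows of Rgr and Rpe65 are shown because they hold it, again with the match on either strand in capitals.
Rgr, chr14:37049015-37049264, minus strand: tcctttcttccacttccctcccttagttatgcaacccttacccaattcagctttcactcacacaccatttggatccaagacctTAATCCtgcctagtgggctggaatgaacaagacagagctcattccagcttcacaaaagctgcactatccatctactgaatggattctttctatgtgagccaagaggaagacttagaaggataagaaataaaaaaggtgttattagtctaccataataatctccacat
Rpe65, chr3:159598931-159599180, plus strand: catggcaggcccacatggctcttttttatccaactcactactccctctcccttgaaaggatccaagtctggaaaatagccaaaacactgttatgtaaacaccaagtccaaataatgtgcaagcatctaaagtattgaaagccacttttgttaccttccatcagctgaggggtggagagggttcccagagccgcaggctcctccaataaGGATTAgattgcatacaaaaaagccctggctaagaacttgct
The E-box CACGTG, which TFEB-family factors bind at lysosomal genes, was in 6 of 25 lysosomal windows (24%), in 8.76% of detected genes and in 6.57% of all. The share was not particular to this list. It was 4 of 18 for immediate early genes (22.2%) and 3 of 17 for secreted carriers (17.6%). TATAAA, the TATA box, was in 10 of 73 windows of the top 100 (13.7%), in 5.69% of detected genes and in 11.8% of all. Other motifs were searched too. The heat shock core GAANNTTC was in 3 of 12 melanin windows (25%) and 4.95% of detected genes. The metal response core TGCNCNC was in 11 of 25 antioxidant and metallothionein windows (44%) and 53.5% of detected genes. These counts describe letters in the windows and are not measurements of binding. The RefSeq start was the same as in the deposited table for Dct and differed from it by 6 bases for Rpe65, 50 for Rgr, 90 for Tyrp1 and somewhat more for Tyr.

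Mitochondrial genome transcripts held 5.58% ± 0.632, from 4.64% in Mertk WT 1 to 6.33% in Bai1 Tg neg 2, and filled 7 of the first 21 ranks. The cytochrome c oxidase subunit gene mt-Co1 ranged from 12104 to 16432 and the cytochrome b gene mt-Cytb from 10659.6 to 13012. Next came the complex I subunit genes mt-Nd1 (7664 ± 1229), mt-Nd5 (5652 ± 718), mt-Nd6 (5066 ± 751), mt-Nd2 (4641 ± 688) and mt-Nd4 (3898 ± 275). Mertk WT 1 and Mertk WT 4 were the lowest 2 libraries for mt-Co1, mt-Nd1, mt-Nd5, mt-Nd6 and mt-Nd2. The value of mt-Nd6, which is coded on the opposite strand, comes from counting without strand and cannot be told apart from reads of the transcripts across from it.

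The other protein-coding mitochondrial genes were listed far lower, with mt-Co2 at 6.78, mt-Co3 at 9.15, mt-Atp6 at 4.07, mt-Nd3 at 9.82, mt-Nd4l at 2.00 and mt-Atp8 at 0.914. All but mt-Atp8 have near-identical copies on chromosome 1 among the GENCODE M21 transcripts. Between 97.99% and 100% of the 50-base windows of those 5 genes recurred in another gene, beside 51.1% for mt-Co1, 62.2% for mt-Nd4 and none for mt-Cytb, mt-Nd1 and mt-Nd6. The sequence of mt-Co2 (MT:7013-7696) matched that of the gene model Gm28661 (chr1:24614885-24615565) at all 681 aligned bases. The first 60 bases of both are shown, in lower case throughout since no base differs.
mt-Co2: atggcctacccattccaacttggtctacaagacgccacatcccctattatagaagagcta
Gm28661: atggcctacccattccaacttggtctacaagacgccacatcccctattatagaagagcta
The copy itself was at 11.7. The mt-Co3 copy Gm28437 (783 aligned bases) and the mt-Atp6 copy Gm10925 (678 aligned bases) also had no mismatch and were at 10.2 and 10.7. The header of the deposited table names no option for counting reads with several alignments. How far shared sequence lowers these values was not tested, so the mitochondrial share of 5.58% covers the genes as counted. mt-Atp8, without a shared window, overlaps mt-Atp6 on the mitochondrial genome.

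Nuclear genes of the respiratory chain and ATP synthase held 2.42% ± 0.101, with 83 of 86 members detected. The leading members were the oxidase subunits Cox8a (1660 ± 225), Ndufa4 (1453 ± 99.5) and Cox8b, known as the muscle form of Cox8 (1344 ± 277). The tricarboxylic acid cycle and lipid oxidation list held 0.567% ± 0.0206 and includes the malate dehydrogenase gene Mdh1 and the electron transfer flavoprotein gene Etfb. Glycolysis and lactate genes held 0.800% ± 0.0343, with Aldoa at 2285 ± 112, Pkm at 1337 ± 72.6 and Ldhb at 1078 ± 60.3. Their sum was 0.808% to 0.833% in Mertk WT and 0.745% to 0.792% in Bai1 Tg neg 1 to 3, without overlap. Gapdh was only at rank 179 (628 ± 38.8). It is among genes with many processed copies, so its level is uncertain in the same way.

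Genes of the lysosome, where engulfed outer segments are broken down, held 2.77% ± 0.140, and 32 of 34 were detected. Ctsd, the aspartic protease cathepsin D, ranged from 8246 to 11692 and was highest in Mertk WT 2. Cd63, a tetraspanin of late endosomes and melanosomes, was at 1647 ± 83.7 and the lysosomal membrane gene Laptm4a at 1288 ± 37.2. The receptors and adaptors of phagocytosis, in contrast, held 0.209% ± 0.00267 with no member in the top 100. Their leading members were the tetraspanin Cd81 (514 ± 20.9), the integrin subunit Itgb5 (282 ± 31.6) and Gas6, a bridging ligand of Mertk (233 ± 15.6). Mertk, the receptor tyrosine kinase for outer segment engulfment, was at 162, 181, 174 and 161 in Mertk WT 1 to 4 and at 155, 159 and 148 in Bai1 Tg neg 1 to 3. Adgrb1, the gene of Bai1, was between 0 and 0.19 in all 7 libraries. Across all 23 members the sum stayed within 0.205% to 0.213%, a CV (SD as a percentage of the mean) of 1.27%, the smallest for a sum among the 35 lists. Single members were not as steady. The median CV of the detected members was 8.65%, beside 6.37% for lysosomal and 8.75% for visual cycle genes.

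Transport genes held 2.64% ± 0.0797, with 7 of 30 members in the top 100. Bsg, which encodes basigin, the partner of lactate transporters, ranged from 8125 to 9092. The lactate transporter gene Slc16a8 (MCT3) was at 1389 in Mertk WT 2 and between 2601 and 3453 in the other 6. The glucose transporter gene Slc2a1 (GLUT1) was at 2205 ± 88.1. Carbonic anhydrase genes Car14 (1881 ± 119) and Car12 (1023 ± 71.7) and the bicarbonate transporter gene Slc4a5 (1579 ± 73.0) followed.

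Iron, metal and redox genes were also prominent. The ferritin chains Ftl1 (2369 ± 268) and Fth1 (2311 ± 115) ranked next to each other at 34 and 35. Mt1, a metallothionein that binds zinc and copper, was at 5472, 2456, 4219 and 4876 in Mertk WT 1 to 4 and at 4931, 4873 and 5170 in Bai1 Tg neg 1 to 3. Mertk WT 2 was the low library, as it was for Mt2 (1205, against 1474 to 2160.2 in the other 6). Mt3 was steadier at 1069 to 1252, with a CV of 6.46% beside 22.0% for Mt1 and 18.6% for Mt2. Gpx4, the peroxidase that acts on lipid hydroperoxides, was at 1596 ± 68.5.

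Structural genes included the short-chain collagens Col8a1 (2777 ± 171) and Col8a2 (1991 ± 262) and the metalloprotease inhibitor gene Timp3 (1341 ± 191), products known from Bruch membrane, the sheet below the RPE. The matrix list held 0.844% ± 0.0454, and the fibrillar collagen genes Col1a1 and Col3a1 were at 0.952 and 1.04. Among 25 cytoskeletal genes, which held 1.11% ± 0.0312, the simple-epithelium keratin genes Krt18 (2597 ± 180.2) and Krt8 (985 ± 54.7), the myosin light chain gene Myl6 (1610.5 ± 76.1) and Ezr, the ezrin gene of apical microvilli (1198 ± 51.3), were in the top 100. Among junction and adhesion genes, which also include Cd63, the connexin gene Gja1 (1107 ± 112) and the claudin gene Cldn1 (753 ± 92.4, rank 138) came next.

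Ribosomal protein genes held 1.68% ± 0.0616 over 83 genes, of which Rplp1 (1071 ± 219), Rpl8 (753 ± 56.8) and Rps15 (733.5 ± 40.2) were highest. More than 20% of their 50-base windows recurred in other genes for 47 of the 83, so these levels and the list's share are uncertain. Translation factors held 0.653% ± 0.0226, led by Eef1a1 (2474 ± 255), Eef2 (1484 ± 111) and Eif4g2 (537 ± 47.7). Of the top 100, 19 had over 20% shared windows and 40 had none. The sole gene of the top 100 that is not protein coding, the processed pseudogene Atp6v0c-ps2, was at 1174 ± 254, with 88.0% of its windows shared with its parent gene Atp6v0c at 33.3. The 2 levels cannot be told apart by these counts. Protein-coding genes held 97.4% ± 0.177 of all abundance and processed pseudogenes 0.942% ± 0.0992. The microRNA gene models held 0.188% although the libraries were made from poly-A RNA, and the leading one, Mir5125, is 79 bases long.

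In the top 100, 26 genes were in none of the lists. The first 3 by abundance were Arl6ip1 (4519 ± 320.5, rank 20), whose protein shapes the endoplasmic reticulum, Tmem98 (3513 ± 348, rank 24), a membrane protein gene, and Ccn1 (2522 ± 787, rank 30), an inducible matrix signalling gene. At the edge of the top 100, Abhd2 (971 ± 87.7) and Trf (962 ± 198) were just inside, and Hspa5 (949 ± 176) and Atp1b1 (945 ± 83.9) just outside, differences far below their SDs.

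Abundant genes were measured with little counting error, and the spread between libraries was mostly not from counting. The median CV over the 7 libraries was 8.35% in the top 100, where counting alone would give 0.668%. It was 8.75% over the genes after these up to rank 500, 8.21% for the next 500, 8.44% for the next 1000, 9.78% for the next 3000 and 15.9% over the remaining detected genes. Within the 2 sets taken separately, the median CV of the top 100 was 7.70%. Among the top 100, 59 had a CV under 10% and 13 had one over 20%.

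The 5 steadiest genes of the top 100 were Laptm4a (CV 2.89%, 1208 to 1315), Bsg (3.76%), Rdh10 (3.86%), Clic6, a chloride channel family gene (3.91%), and Slc2a1 (4.00%). The 5 most variable were Fos (40.2%), Jun (32.6%), Ccn1 (31.2%), Enpp2 (25.2%) and Dnajb1 (24.8%), the last a co-chaperone gene of HSP70. Ttr, with a CV of 5.59%, was steadier than the median of the group.

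**Figure D3:**
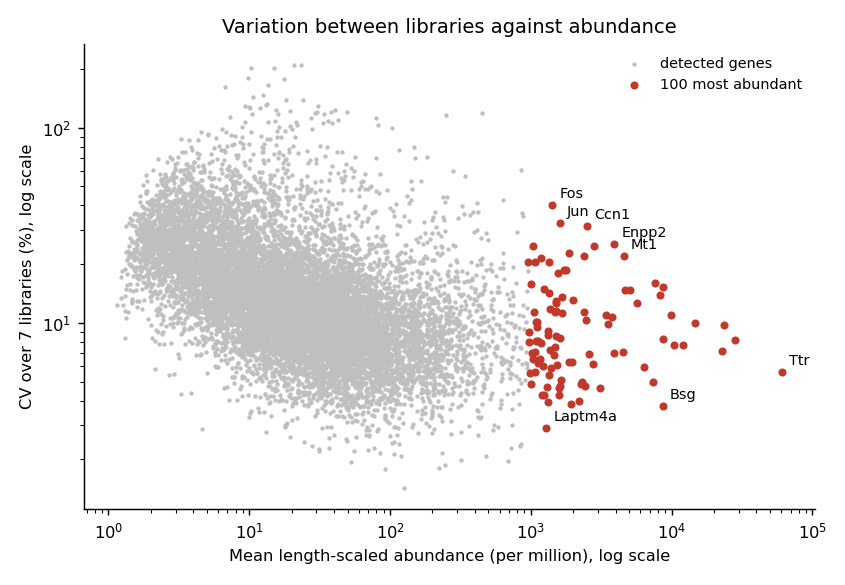
CV over the 7 libraries (%, vertical log axis) against mean length-scaled abundance (per 1000000, horizontal log axis); grey points are the 11999 detected genes and red points the 100 most abundant. The immediate early genes Fos and Jun are the highest red points at 40.2% and 32.6%.

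Immediate early genes, which are switched on within minutes of a stimulus, held 0.742% ± 0.256. Their summed share was 0.658%, 0.496%, 0.767% and 0.378% in Mertk WT 1 to 4 and 1.01%, 1.08% and 0.799% in Bai1 Tg neg 1 to 3, so the sets did not overlap. Among the 35 lists, the sets also did not overlap for the glycolysis, rod and cone sums, and they overlapped for the rest. Fos, a subunit of the AP-1 transcription factor, was at 1161, 1051, 1274 and 602 in Mertk WT 1 to 4 and at 1989.9, 2254 and 1563 in Bai1 Tg neg 1 to 3, without overlap. Jun, its partner, was at 1563, 988, 1864 and 834 and at 2212, 2072 and 1698, with overlap. Egr1, a zinc finger factor, was at 706, 552, 855 and 514 and at 1273, 1315 and 885.5. Mertk WT 4, the only one of the 7 libraries whose tag begins with 21, was the lowest for all 3. It was also lowest for Ccn1 (1141, with 1967 to 3444 in the other 6) and for Dnajb1 (639, with 771 to 1329). Genes for chaperones and ubiquitin held 1.36% ± 0.148, again lowest in Mertk WT 4 at 1.08%, with 1.29% to 1.51% in the other 6. Their leading members were Hsp90aa1 (1551 ± 279), Hsp90ab1 (1501 ± 193) and Hspa8 (1500.4 ± 191).

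**Figure D4:**
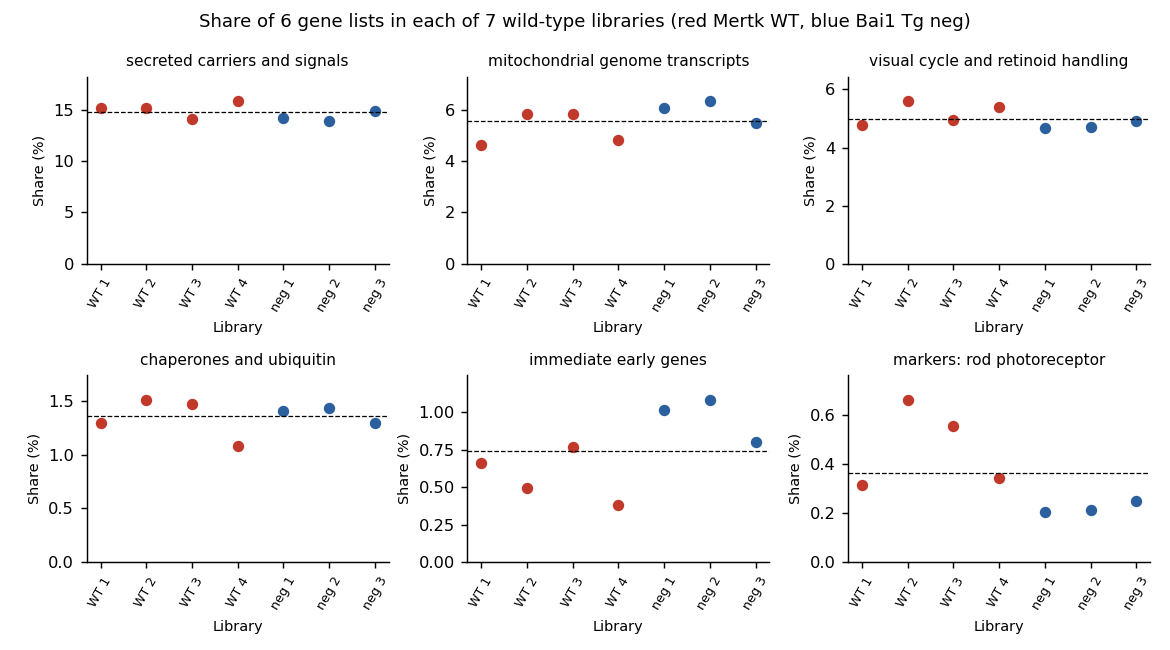
Share of length-scaled abundance (%, vertical axes from 0) of 6 gene lists in each library (horizontal axes), red for Mertk WT and blue for Bai1 Tg neg, with the mean of 7 as a dashed line. The secreted share has a CV of 4.73%, the visual cycle share 7.03%, the chaperone share 10.9% and the mitochondrial share 11.3%, the immediate early share runs from 0.378% to 1.08%, and the rod marker share is highest in Mertk WT 2 and 3.

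Mertk WT 2 stood apart for a further set of abundant genes. Without it, 5 genes of the top 100 had a CV over 20% in place of 13, and the genes that left that range were Mt1, Enpp2, Slc16a8, Col9a3, Mif, Cox8b, Atp6v0c-ps2 and Rplp1. Leaving out Mertk WT 4 took Ccn1, Cox8b, Dnajb1 and Trf out of it. Across genes, the deviation of Mertk WT 2 from the other libraries correlated with the GC content of the transcripts, and that of Mertk WT 1 did so in the other direction. Across 11958 detected genes, Spearman's rho between GC content and the log2 level of the library over the mean of the other 6 was -0.50 for Mertk WT 2 and 0.49 for Mertk WT 1. It was 0.29 for Mertk WT 4 and between -0.23 and 0.12 for the other 4. In the top 100 the values were 0.75, -0.64, 0.07 and 0.41 for Mertk WT 1 to 4 and -0.16, -0.31 and 0.35 for Bai1 Tg neg 1 to 3. The tenth of genes with the highest GC content was lower in Mertk WT 2 by a median log2 difference of -0.49, and the tenth with the lowest GC content was higher by 0.15. These are descriptions across genes, which are not independent replicates, and each library enters the mean of the others. The part of GC content in any single gene's spread was not tested.

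**Figure D5:**
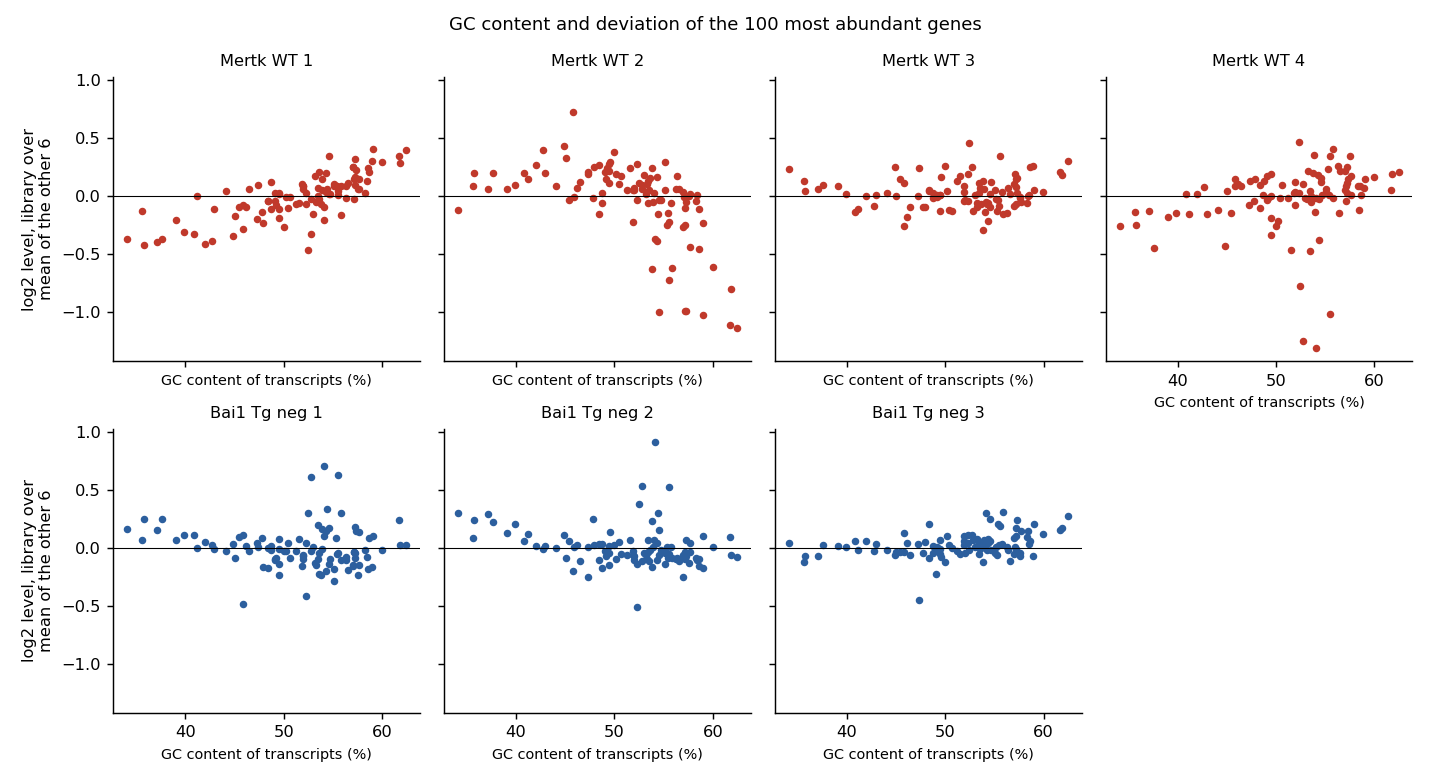
Log2 level of a library over the mean of the other 6 (vertical axis) against the GC content of transcripts (%, horizontal axis) for the 100 most abundant genes, with a panel for each of the 7 libraries and a point per gene. The points rise with GC content in Mertk WT 1 (rho 0.75), fall in Mertk WT 2 (rho -0.64), and lie between these in the other 5 (rho -0.31 to 0.41).

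Between the 2 sets of wild-type libraries, 28 of 13710 genes tested (0.204%) passed an adjusted p of 0.05 in edgeR's quasi-likelihood test, 13 higher (0.0948%) and 15 lower (0.109%) in Bai1 Tg neg. None of the 100 most abundant genes was among them. At an unadjusted p under 0.05 there were 13 of the 100 and 1000 of all genes (7.29%). DESeq2 called 213 of all 13703 genes it gave an adjusted p (1.55%) and 2 of the 100, Fos (log2 difference 0.90, adjusted p = 0.00132) and Timp3 (log2 difference -0.35, adjusted p = 0.0142). The median absolute log2 difference was 0.095 over the top 100 and 0.12 over all genes tested. The most abundant gene past the threshold, named after its value was seen, was the ribosomal gene Rplp0 at rank 627, with a mean of 170 in Mertk WT and 284 in Bai1 Tg neg (edgeR adjusted p = 0.0142), and its reads can be shared with processed copies. The first number of the tags in the descriptions is 12 for the Bai1 Tg neg libraries, 17 for Mertk WT 1 to 3 and 21 for Mertk WT 4, so this number and the set cannot be told apart and nothing is drawn about genotype. The number of calls ran from 4 without Bai1 Tg neg 2 to 65 without Mertk WT 1, and Fos passed (edgeR adjusted p = 0.0463) without Mertk WT 4.

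The genes of the top 100 with the smallest p did not pass. The 5 lower in Bai1 Tg neg were Timp3 (log2 difference -0.35 ± 0.087 SE), Slc6a13, a transporter gene for GABA and taurine (-0.27 ± 0.081), Trf (-0.44 ± 0.14), Stra6 (-0.22 ± 0.075) and Rgr (-0.23 ± 0.079), with adjusted p-values of 0.205 to 0.423 by edgeR. The 5 higher were the actin gene Actb (0.32 ± 0.098), Fos (0.90 ± 0.26), mt-Nd6 (0.23 ± 0.11), Jun (0.58 ± 0.30) and the kinase gene Sgk1 (0.13 ± 0.074), with adjusted p-values of 0.373 to 0.800. In edgeR 0 of 21 immediate early genes tested passed, 10 had an unadjusted p under 0.05 (7.29% of all genes), and DESeq2 called 5 as higher (Fos, Egr1, Egr2, Ier2 and Btg2), beside 60 higher calls over all genes (0.438%). Their median log2 difference was 0.62, beside 0.0036 over all genes.

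Marker lists of other cells summed to between 0.000827% (erythroid) and 2.65% (Muller glia and astrocytes) on average. Which cells these reads came from was not tested. The rod photoreceptor list (35 genes) summed to 0.315%, 0.664%, 0.556% and 0.344% in Mertk WT 1 to 4 and to 0.205%, 0.211% and 0.249% in Bai1 Tg neg 1 to 3. The sum was highest in Mertk WT 2 and 3, and the sets did not overlap. Slc24a1, Gnb1 and Unc119 led the list at 734, 479 and 464, and were steadier, Slc24a1 having a CV of 11.3%. Of the 35, 0 passed in edgeR, 30 had an unadjusted p under 0.05 (7.29% of all genes) and 27 were called lower in Bai1 Tg neg by DESeq2, beside 153 lower calls over all genes (1.12%), with a median log2 difference of -3.34. In bulk RNA, fewer cells of a type and less RNA per cell cannot be told apart. With the rod level as a covariate no gene passed between the sets in edgeR. For the 28 genes called without it, the median absolute log2 difference was 1.31 without and 1.28 with the covariate, all 28 kept their sign, and the median SE went from 0.18 to 0.39. Over the top 100, 63 genes kept their sign and 75 had a larger absolute difference with the covariate. Their median absolute log2 difference went from 0.095 to 0.185 and their median SE from 0.087 to 0.179. Among them, the log2 difference of Fos was 0.98 and that of Timp3 -0.46 with the covariate. Those of Trf, Slc6a13 and Rgr were -0.06, -0.05 and -0.08. The part of rod level in any single gene's difference was not tested.

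The Muller glia and astrocyte list summed to 2.65% ± 0.108, but its leading members Apoe, Clu, Rlbp1 and Glul are also RPE genes. Of its 15 members 8 were detected, and the median member was at 5.13. Gfap, Kcnj10 and Aqp4, picked after their values were seen, were at 0.23, 0.182 and 0.0225. Microglia and macrophage markers summed to 0.0482%, of which Csf1r held most at 389.5 ± 17.1, with Cd68 at 23.1, while Ptprc was at 0.00242, Cx3cr1 at 0.0962 and Aif1 at 0.0305. Choroidal melanocyte and Schwann cell markers summed to 0.115%, led by Mlana, also a melanosome gene (577 ± 43.1), Sox10 (286 ± 46.9) and Pmp22 (258.5 ± 12.7). Of these 12 markers 7 were detected, with Mbp and Kit next by abundance, and Pax3 was at 0.00717. Endothelial markers summed to 0.0135%, nearly all of it Ramp2 (125 ± 23.5), with Egfl7 and Kdr at 2.98 and 2.94 and Pecam1 and Cdh5 at 0.176 and 0.15. Smooth muscle and pericyte markers summed to 0.0381%, led by Acta2 at 319, Cspg4 at 26.0 and Pdgfrb at 15.2. Bipolar, amacrine and ganglion cell markers summed to 0.0613%, led by Slc6a9 at 331, Trpm1, also a melanocyte gene, at 249.7 and Prkca at 11.6. Cone markers summed to 0.00828% (Thrb 20.2, Kcne2 15.6, Gnat2 11.2), ciliary and iris epithelium markers to 0.0127% (Mab21l1 80.0, Ccnd2 43.2, Wfdc1 2.89), lens markers to 0.00485% (Bfsp2 40.2, Mip 6.58, Bfsp1 0.573), fibroblast markers to 0.0014% (Dcn 3.94, Fbln1 3.43, Mfap5 2.19) and erythroid markers to 0.000827% (Hbb-bs 5.12, Hba-a1 1.29, Alas2 0.757).

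The remaining lists were spread over lower ranks. Among immune genes, B2m, the light chain of class I molecules, was at 1029 ± 67.3 (rank 93) and Ifitm2 was at 259 ± 18.9, while C3 was at 0.104. In the list of signalling peptides and calcium-binding proteins, S100a1 led at 978 ± 78.0 (rank 98), before Calm3 (941 ± 55.1) and Calm2 (575 ± 82.5). After Otx2, the transcription factor list had the dominant-negative helix-loop-helix genes Id2 (445 ± 88.9) and Id1 (mean 246, CV 41.6%). Clock genes held 0.157% ± 0.0116, led by Bhlhe40 (456 ± 78.6), Per1 (148.1 ± 30.6) and Tef (141 ± 5.74), with Arntl at 23.2 ± 1.93, all at a single time of day.

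The same genes led in the rest of the series. The 8 libraries outside this group, which include Mertk KO, Bai1 Tg pos and Bai1 Tg neg 4, shared all 10 genes of the top 10, 49 of the top 50 and 98 of the top 100 by their mean. The 4 Mertk KO libraries alone shared 93 of the top 100, and the 3 Bai1 Tg pos libraries 96. The top 100 of the 2 wild-type sets shared 95 genes with each other. No difference between genotypes was tested here.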

How the data were processed

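Per the labels' protocols, libraries were made from poly-A RNA of isolated RPE with a TruSeq kit. STAR and the build GRCm38 are named in the submitters' processing notes; neither the STAR version nor the annotation release was found in the labels or headers. Counting by the authors used featureCounts 1.5.0, per the file headers, with both ends mapped, exons summed per gene and no strand option. The deposited values are raw counts for 46078 genes, with a gene length in bases as the other numeric column the authors deposited. Groups come from the titles.

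From these, counts were divided by length and scaled to 1000000 in each library, and CPM, the count per 1000000, was computed for the check without length. Detection meant an abundance of 1 or more in all 7 libraries. The 2 wild-type sets were compared with edgeR 4.0.16 in R 4.3.3 (filterByExpr, TMM, robust quasi-likelihood F test, two-sided, Benjamini-Hochberg over 13710 genes, threshold 0.05). On simulated counts the test recovered 65.5% of 200 genes changed 2-fold, with 4.38% false calls. These counts were drawn independently for each gene, without the GC and rod differences between the libraries. The rates therefore need not hold for the real comparison. A count of 3, the floor, equals 0.162 to 0.313 CPM; intervals and floors cover counting error only. Between libraries of a set, chi-square per degree of freedom was at least 5.03, above counting error alone. It cannot tell repeat preparations of the same RNA from separate animals, and each library was taken as its own unit.

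Symbols and gene classes came from GENCODE M21 and matching tables (45143 symbols, 99.91% of counts). Members and lists, 35 with 12 of markers, were chosen with earlier results of these data known. The text names genes from the 30 most abundant, the 3 most abundant per list, the 5 highest and lowest CV and the 5 smallest p per direction in the top 100, the 2 genes on either side of the edge of the top 100, Mertk and Adgrb1; some genes of these rules are not reported here. The other genes named (members that complete a pathway or define a cell type, and those in no list) were chosen after their values were seen, as were the searches of shared windows, GC content and promoters. Alternatives covered length scaling, gene sets in the total, library sets, DESeq2 1.42.0, other size factors, no filter, the replicate number as a block and leaving out each library.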

Additional observations from a re-analysis of the deposited data

Results flagged for a closer look

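In the 4 Mertk WT libraries, 68 values of lists and genes were checked for a library far from the others by Dixon's ratio, and 4 passed its critical value; chance alone passes about 1 in 20 such groups. The share of ion, water and metabolite transport genes in Mertk WT 2 was the lowest of these 4 at 2.61%, beside 2.70% in each of the other 3, but Bai1 Tg neg 1 and 2 were lower still at 2.49% and 2.58%. The share of iron handling genes in Mertk WT 2 was also the lowest of the 4 at 0.567%, beside 0.611% to 0.618%, and Bai1 Tg neg 2 was at 0.565%. The complement and immune share in Mertk WT 2 was the highest of the 4 at 0.217%, beside 0.188% to 0.192%, with Bai1 Tg neg 1 to 3 at 0.191%, 0.209% and 0.193%. Fibroblast markers in Mertk WT 4 were the highest of the 7 libraries at 0.00363%, beside 0.000951% to 0.00102% in the other 3 Mertk WT libraries and 0.000871% to 0.00124% in Bai1 Tg neg 1 to 3. Dcn, one of these markers, was at 10.7 in Mertk WT 4 and 2.30 to 3.70 in the other 6.

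Bai1 Tg neg 4, a library outside the 7, had Adgrb1 at a length-scaled abundance of 62.3, where Bai1 Tg neg 1 to 3 were at 0 to 0.0607.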

How the results depend on the processing

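Shares of the 10, 50 and 100 most abundant genes were 10.9%, 22.2% and 28.7% by CPM without length scaling, with 65 of the top 100 kept. The shares of the top 50 and top 100 were 30.8% and 37.0% with mitochondrial genome genes left out, 34.3% and 40.7% over protein-coding genes only, and 35.2% and 41.9% with lengths reduced by shared windows, an alternative chosen after seeing the data. The median CV of the top 100 was 4.65% in Bai1 Tg neg 1 to 3 alone. Leaving out each library in turn gave 19.8% to 20.1%, 33.3% to 33.5% and 39.5% to 39.7% for the 3 shares, kept 98 to 100 of the top 100 and gave a median CV of 6.87% to 8.97%. With lengths reduced by shared windows 90 of the top 100 were kept, and Eno1b moved from rank 301 to 34 and Tuba1b from 181 to 39.

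Calls between the wild-type sets (28, with 13 higher and 15 lower in Bai1 Tg neg) were 213 (60 higher, 153 lower) by DESeq2, 118 (40 and 78) with no filter on low counts, 15 (8 and 7) with all 15 libraries in 1 fit and 58 (44 lower) with Bai1 Tg neg 4 added. They were 0 (0 higher, 0 lower) with the rod level as a covariate, where SEs were larger. In the top 100, DESeq2 called 2 and the fit with no filter 1. Leaving out each library gave 4 to 65 calls, 3 to 21 higher and 1 to 45 lower, and 0 to 1 in the top 100: 65 without Mertk WT 1, 38 without Mertk WT 2, 12 without Mertk WT 3, 59 without Mertk WT 4, and 5, 4 and 9 without Bai1 Tg neg 1, 2 and 3. With the replicate block there were 111 calls (94 lower). Deviations of same-numbered libraries correlated at 0.0187, 0.133 and 0.00233, so the numbers are not taken as pairs. Counting error limits genes near the floor of 3 counts, not the top 100.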
